A study of Homo sapiens and Mus musculus with 92 samples.

Results

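Cohesin is the ring complex that holds sister chromatids together and folds chromosomes into loops, and its genes were followed through 2 knockdown (KD) experiments in HEL cells, an established human erythroleukemia line. The 10 genes were SMC1A, SMC3, RAD21, STAG1 and STAG2 for the ring, NIPBL and MAU2 for the loader, and WAPL, PDS5A and PDS5B for the regulators that act on loaded rings. They are 10 of the 28103 gene rows in each of 2 count tables, taken by exact gene symbol. The group was chosen by the lower counts of SMC1A after MLL1 KD, so every value from that contrast is a description and carries no test for these genes. The rule did not use the AF9 KD contrast, which was tested, though earlier results of both contrasts were known.

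The study asked how MLL1 (gene KMT2A), a histone methyltransferase, and AF9 (gene MLLT3), a reader protein of elongation complexes, act on transcription in cells without a rearranged MLL gene. Poly(A) RNA of HEL cells was sequenced from 3 control and 3 MLL1 KD samples, and from a separate set of 2 control and 2 AF9 KD samples. The other samples of the series were not analysed here. The labels give the control cells as WT and the treated cells as MLL1 knockdown or AF9 knockdown. By the study's methods, KD cells carried a lentiviral shRNA, a TRC control shRNA was used for control cells, and puromycin selection was applied, which is stated for other assays of the same cells. Each target was depleted with 1 shRNA in the RNA-seq experiments, in 1 cell line. Nothing in the labels says whether replicates came from separate cultures, so p-values measure only the spread between these samples, which may be technical.

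In the ring, SMC1A and SMC3 are long coiled-coil ATPases that pair with each other, and RAD21 is the kleisin that bridges their heads and is cut by separase when chromatids part. STAG1 and STAG2 are alternative subunits bound to RAD21, and STAG2 is recurrently mutated in myeloid leukemia. NIPBL with MAU2 loads cohesin and drives its ATPase, WAPL opens the ring and releases it, and PDS5A and PDS5B are alternative partners that assist both release and the acetylation that stabilizes cohesion.

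Totals were 6966345 to 10380241 counts per library in the MLL1 experiment and 12278989 to 14232408 in the AF9 experiment. The targeted genes followed the labels. KMT2A was at 1323, 1300 and 1258 CPM in control cells and at 813, 815 and 835 CPM in MLL1 KD cells. MLLT3 was at 548 and 528 CPM in control cells and at 107 and 92.6 CPM in AF9 KD cells. CPM, the count as a share of the TMM-scaled library total, is used for differences. TPM also divides by gene length and is used to compare levels between genes. The labelled type, Human erythroblast, was checked on 7 erythroid genes (HBG1, HBG2, HBZ, EPOR, GATA1, KLF1, TAL1). All 7 reached 1 CPM in every library of the MLL1 experiment and 6 of 7 did in the AF9 experiment, where HBZ was lowest. CD3D, CD3E and CD3G, which mark T cells, together stayed under 0.5 CPM in every library. Of the markers of further cell types, ITGA2B (megakaryocytes) was at a mean of 1300 CPM in the MLL1 experiment and 948 CPM in the AF9 experiment, LYZ (monocytes) at 17.6 and 78.8 CPM and KRT8 (epithelium) at 13.5 and 21.3 CPM, while CD14 (monocytes) had means under 0.1 CPM. In the MLL1 experiment replicate 1 of each group stood apart from replicates 2 and 3, and same-numbered libraries deviated together there.

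The sequences of both shRNAs are shown because RNA interference can also act on transcripts that match only the seed, bases 2 to 8 of the guide strand. Capitals mark the bases that pair with the seed of the hairpin's antisense arm. The MLL1 shRNA site lies in exon 3 of KMT2A, in coding sequence at chr11:118474149-118474169 (hg38, plus strand), and the AF9 shRNA site in exon 5 of MLLT3, in coding sequence at chr9:20414247-20414267 (minus strand). The sites in SMC1A, STAG1 and STAG2 that carry the same 7 letters as the MLL1 shRNA target are aligned with it.
MLL1 shRNA #1 target in KMT2A: gcactgttaaacaTTCCACTt
SMC1A, first site: gacttgtccaagaTTCCACTg
SMC1A, second site: gcagagcctagacTTCCACTc
STAG1: gaggatgtatggcTTCCACTc
STAG2: gaggatgtgtggcTTCCACTg
AF9 shRNA #1 target in MLLT3: ttcaaagcctcacAAATTAAt

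Both SMC1A sites lie in the 3′ UTR in exon 25, the last exon of the canonical transcript, at chrX:53377196-53377216 and chrX:53377167-53377187 (hg38, minus strand). They matched the MLL1 shRNA target at 14 and 12 of 21 positions. SMC1A was the only one of the 10 genes with 2 such sites in its 3′ UTR. Across the tested genes, TTCCACT on the sense strand occurred in 22.4% of canonical transcripts and in 15.0% of 3′ UTRs, and 2.53% of genes had 2 or more in the 3′ UTR. Neither the counts per gene nor these shares were matched for the length of the 3′ UTR. STAG1 and STAG2 had 1 site each, in coding sequence at chr3:136349294-136349314 and chrX:124086596-124086616, with matches at 10 and 9 of 21 positions. SMC3 had 1 site in its 3′ UTR. NIPBL, MAU2 and PDS5A had 1 each in coding sequence, PDS5B had 1 in coding sequence and 1 in the 3′ UTR, and RAD21 and WAPL had none. The 302 genes with 2 or more 3′ UTR sites had a median log2 fold change of 0.03 after MLL1 KD, beside 0.02 for the 10158 genes without one. A best match of 14 of 21 or more was reached by 21.9% of tested genes. Whether these sites bear on the level of SMC1A was not tested, and all MLL1 KD libraries used here carried the same shRNA.

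In control cells all 10 genes were expressed, and RAD21 had the highest level in both experiments. Its mean level was 142 ± 5.70 TPM (SD, n = 3) in the controls of the MLL1 experiment and 334 ± 10.2 TPM (SD, n = 2) in those of the AF9 experiment. In the MLL1 experiment NIPBL (107 TPM), SMC1A (99.7 TPM) and PDS5A (87.9 TPM) came next, with neighbours whose ranges over libraries overlapped. WAPL (45.0 TPM), STAG2 (39.2 TPM), PDS5B (35.5 TPM) and SMC3 (33.2 TPM) formed a further run of overlapping neighbours. MAU2 (29.4 TPM) and STAG1 (23.6 TPM) were lowest and did not overlap their neighbours. In the AF9 experiment the control order was RAD21, SMC1A (128 TPM), STAG2 (115 TPM), WAPL (92.7 TPM), PDS5A (90.7 TPM), NIPBL (72.6 TPM), SMC3 (51.9 TPM), PDS5B (38.6 TPM), STAG1 (23.5 TPM) and MAU2 (14.8 TPM), and of these neighbours only WAPL and PDS5A overlapped. The order of genes rests on merged exon lengths, which exceed the canonical transcript to unequal degrees. They are 14382 against 3660 bases for RAD21, 15505 against 5522 for SMC3 and 10830 against 9710 for SMC1A. With other lengths the order may differ, which was not tested. The 2 sets of controls were normalized and fitted separately, so the difference between them was not tested. SMC3 and RAD21 share 8.1% and 8.62% of their transcripts' 31-base stretches with transcripts of other genes, mainly the pseudogenes SMC3P1 and RAD21P1, so a small part of their counts is uncertain. For the other 8 genes the share was at most 0.602%.

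**Figure D1:**
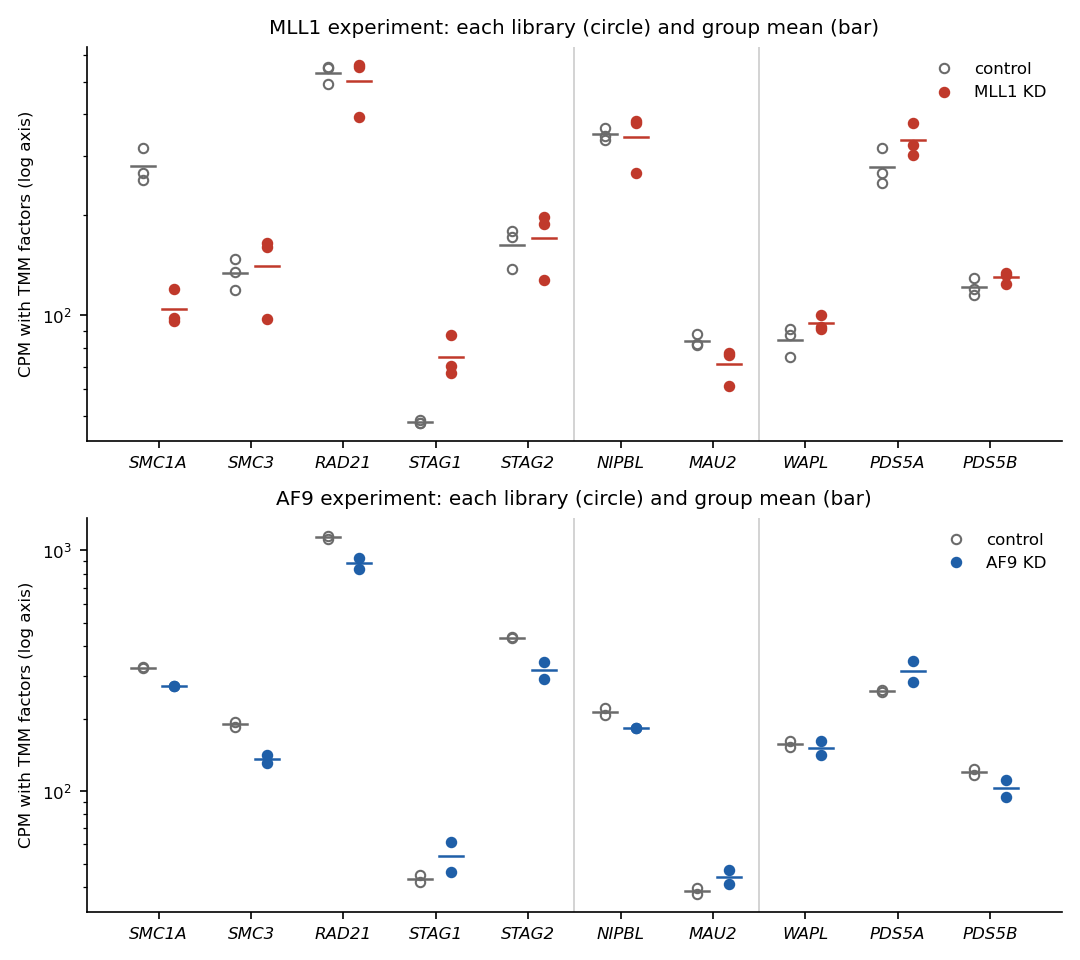
Level of each cohesin gene in every library, in CPM on a log axis, with control cells as open circles, KD cells as filled circles, and group means as bars. Vertical lines separate ring, loader and regulators. The 3 MLL1 KD libraries sit at 96.4 to 120 CPM for SMC1A, all below the control range of 255 to 316 CPM.

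After MLL1 KD, SMC1A stood apart from the rest of the complex. The SMC1A gene lies at chrX:53374149-53422728 (hg38, minus strand). Control replicates 1, 2 and 3 had levels of 316, 267 and 255 CPM, and the same-numbered MLL1 KD replicates had 120, 97.9 and 96.4 CPM. Every KD library was far below every control library. The mean in KD cells was 37.5% of that in control cells (279 ± 32.6 CPM, SD, n = 3), which is -1.42 on the log2 scale (SE 0.14). Within replicate numbers the log2 difference was -1.40, -1.44 and -1.40, so replicate 1, which stands apart in overall profile, gave the same value as the others. Among the 14393 genes tested, 206 had a lower log2 fold change. In bulk samples like these, fewer cells of one kind and less RNA per cell cannot be told apart.

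SMC3, the partner of SMC1A, had overlapping groups. It was at 119, 148 and 134 CPM in control cells and at 97.3, 160 and 164 CPM in MLL1 KD cells. Both groups spread widely, and the log2 fold change was 0.07 (SE 0.21), with a 95% interval from -0.42 to 0.56. RAD21 was at 490, 549 and 553 CPM in control cells and at 393, 561 and 554 CPM in KD cells, again with overlap (log2 fold change -0.08, SE 0.16).

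The paired STAG subunits differed from each other. STAG1 was at 48.6, 47.7 and 47.5 CPM in control cells and at 87.3, 70.3 and 67.0 CPM in MLL1 KD cells, so all KD libraries were higher. Its log2 fold change was 0.64 (SE 0.14), a level 156% of control. Replicate 1 gave the largest difference, 0.84 on the log2 scale, and replicates 2 and 3 gave 0.56 and 0.49, each under 1.5-fold. STAG2 was at 138, 179 and 172 CPM in control cells and at 128, 197 and 187 CPM in KD cells. Its groups overlapped, with a log2 fold change of 0.07 (SE 0.19).

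Of the loader, NIPBL was at 334 to 364 CPM in control cells and at 267 to 380 CPM in MLL1 KD cells, with a log2 fold change of -0.03 (SE 0.15). MAU2, the partner that stabilizes NIPBL, was at 81.5, 88.0 and 82.3 CPM in control cells and at 61.4, 76.3 and 77.2 CPM in KD cells. All 3 KD libraries of MAU2 were below the controls, by a log2 fold change of -0.23 (SE 0.14).

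Among the regulators, WAPL was at 74.9, 87.2 and 90.7 CPM in control cells and at 91.1, 100.3 and 92.4 CPM in MLL1 KD cells. The KD libraries lay just above the controls (log2 fold change 0.17, SE 0.13). PDS5A had a log2 fold change of 0.27 (SE 0.14), from 249 to 317 CPM in control cells and 302 to 375 CPM in KD cells, with overlap. Within replicate numbers the KD library of PDS5A was higher each time, by 0.24, 0.18 and 0.38 on the log2 scale. PDS5B had a log2 fold change of 0.10 (SE 0.11), and its groups overlapped as well.

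In edgeR's quasi-likelihood fit with no pairing, 1 of the 10 genes, SMC1A, was called (at least 1.5-fold, adjusted p under 0.05 over all genes), beside 0.0625% of all tested genes. The targeted gene KMT2A was not called in this fit (log2 fold change -0.66, SE 0.09, edgeR adjusted p = 0.0723). With the replicate block 2 of the 10 were called, SMC1A lower and STAG1 higher, beside 4.72% of tested genes. KMT2A had an edgeR adjusted p of 3.49e-07 with the block. DESeq2 on the same genes also called SMC1A and STAG1, beside 1.61% of tested genes. KD libraries lay wholly on one side of control for 4 of the 10, with SMC1A and MAU2 lower and STAG1 and WAPL higher, beside 17.7% of tested genes. Since this contrast chose the genes, nothing is read from these counts. Summed erythroid markers were also lower after MLL1 KD, at 1306 to 1332 CPM in control cells and 1127 to 1170 CPM in KD cells. So were 3 summed megakaryocyte markers, mostly ITGA2B, at 1440 to 1613 CPM and 1122 to 1394 CPM. Their part in the values of the cohesin genes was not tested. The median log2 fold change was 0.07 over the 10 genes and 0.01 over all tested genes. Replicate 1 was at the same end in both groups for 9 of the 10: it had the highest SMC1A, STAG1 and PDS5A and the lowest SMC3, RAD21, STAG2, NIPBL, MAU2 and WAPL of its group. The call of SMC1A was lost without any 1 control library and without KD replicate 2 or 3. Its log2 fold change over these fits and the fit without KD replicate 1 stayed between -1.52 and -1.32.

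**Figure D2:**
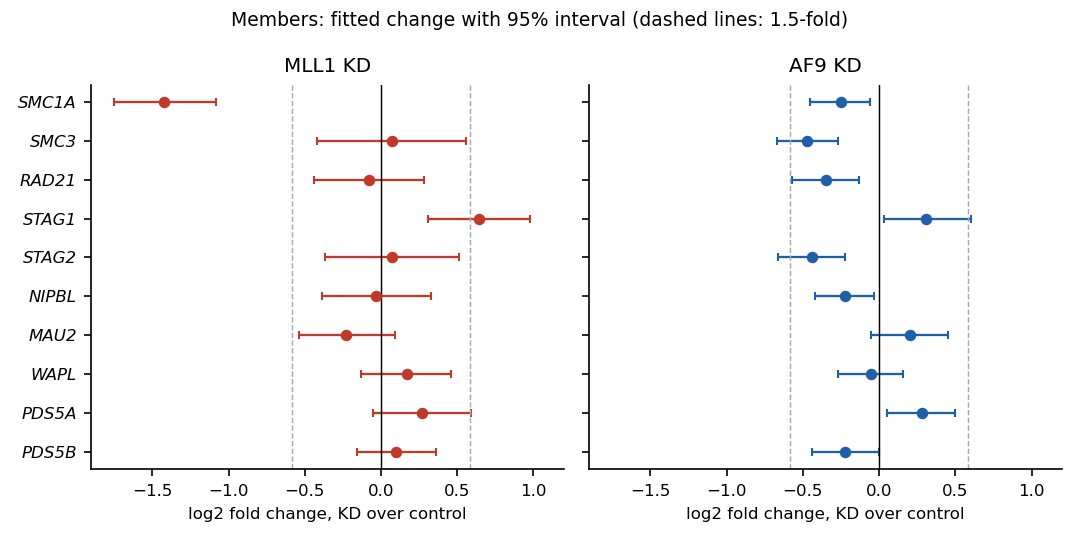
Fitted log2 fold change of KD over control for each cohesin gene, with its 95% interval, after MLL1 KD (left) and AF9 KD (right). Dashed lines mark 1.5-fold. SMC1A is at -1.42 after MLL1 KD, the contrast that chose the group, so the intervals of that panel are a description and carry no test. After AF9 KD no estimate reaches 1.5-fold.

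After AF9 KD 3 of the 5 ring subunits, SMC3, STAG2 and RAD21, were lower with an adjusted p under 0.05, each by less than 1.5-fold, beside 14.6% of all tested genes lower and 29.0% in either direction. STAG1 and PDS5A had the highest log2 fold changes of the group, 0.31 and 0.28, and did not pass the test. SMC3 was at 193 and 185 CPM in control cells and at 142 and 131 CPM in AF9 KD cells. Both KD libraries were lower, at 72.0% of control (log2 fold change -0.47, SE 0.09, edgeR adjusted p = 0.00233). This is the one gene of the 10 with an adjusted p under 0.05 in all 13 alternative fits as well. STAG2 was at 436 and 431 CPM in control cells and at 345 and 293 CPM in AF9 KD cells. Both KD libraries were again lower, at 73.6% of control (log2 fold change -0.44, SE 0.10, edgeR adjusted p = 0.00570). RAD21 was at 1147 and 1114 CPM in control cells and at 933 and 837 CPM in KD cells, also without overlap (log2 fold change -0.35, SE 0.10, edgeR adjusted p = 0.0191).

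SMC1A was at 327 and 324 CPM in control cells and at 274 and 273 CPM in AF9 KD cells. Its libraries did not overlap, but the test did not pass (log2 fold change -0.25, SE 0.09, 95% interval -0.45 to -0.06, edgeR adjusted p = 0.0514). The value is set beside the -1.42 after MLL1 KD without a test of the difference. STAG1 was at 44.7 and 42.0 CPM in control cells and at 61.6 and 46.2 CPM in AF9 KD cells. The KD libraries were higher and far apart from each other, with a log2 fold change of 0.31 (SE 0.13, edgeR adjusted p = 0.0937).

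NIPBL was at 221 and 207 CPM in control cells and at 184 and 182 CPM in AF9 KD cells (log2 fold change -0.22, SE 0.09, edgeR adjusted p = 0.0822). MAU2 was at 37.2 and 39.5 CPM in control cells and at 41.1 and 47.0 CPM in KD cells (log2 fold change 0.20, SE 0.12, edgeR adjusted p = 0.218). Neither loader gene passed the test, though the libraries of both did not overlap between groups. Of the regulators, PDS5A was at 258 and 262 CPM in control cells and at 347 and 284 CPM in KD cells, higher in both (log2 fold change 0.28, SE 0.11, edgeR adjusted p = 0.0661). PDS5B was at 123 and 117 CPM in control cells and at 111 and 94.8 CPM in KD cells, lower in both (log2 fold change -0.22, SE 0.10, edgeR adjusted p = 0.123). WAPL was at 162 and 152 CPM in control cells and at 162 and 141 CPM in KD cells, with overlap (log2 fold change -0.05, SE 0.10, edgeR adjusted p = 0.721).

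By edgeR with the 1.5-fold limit 0 of the 10 genes were called after AF9 KD, beside 13.1% of all tested genes. DESeq2 also called 0, and 8 of the 10 had an unadjusted p under 0.05 in the edgeR fit, beside 40.6% of tested genes. Without the fold limit 3 of the 10 had an adjusted p under 0.05, all lower. With total counts in place of TMM scaling 4 did, SMC3 and STAG2 lower and STAG1 and PDS5A higher (log2 fold change 0.40 and 0.36, edgeR adjusted p = 0.0430 and 0.0218), while RAD21 did not (edgeR adjusted p = 0.0606). That scaling put the median log2 fold change of all tested genes at 0.1, beside 0.01 with TMM. The share of all genes passing under it is not given, so nothing is read from this count. The libraries did not overlap for 9 of the 10 (6 lower, 3 higher), beside 66.0% of tested genes (33.2% lower, 32.8% higher). The median log2 fold change was -0.22 over the 10 genes and 0.01 over all 13332 tested genes. On the TPM scale every log2 difference in this experiment is shifted by 0.11 relative to CPM, so differences are given on the CPM scale. Summed erythroid markers also moved with the groups, from 8692 to 8838 CPM in control cells to 5542 to 6589 CPM in AF9 KD cells. The sum is weighted to HBG2, the highest of them at a mean of 4023 CPM, so it does not show each gene falling. Summed monocyte markers, nearly all LYZ with CD14 at 0, were lower as well, at 86.9 to 93.4 CPM in control cells and 64.5 to 72.4 CPM in KD cells. Summed megakaryocyte markers overlapped, at 842 to 992 CPM in control cells and 931 to 1180 CPM in KD cells. The part of these in the values of the cohesin genes was not tested.

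GC content moved with the AF9 contrast. Across the 13036 tested genes with a GC content, log2 fold change and GC content had a Spearman rho of 0.48, beside -0.07 in the MLL1 experiment, a description over genes of the same libraries. Of the 10 genes, 8 have merged exons at 34.2% to 40.5% GC, SMC1A is at 47.9% and MAU2 at 57.5%, beside a median of 47.6% for tested genes. With offsets for the GC trend of each library, the median over the 10 genes was -0.05. SMC3 and STAG2 then each had a log2 fold change of -0.26 (edgeR adjusted p = 0.0205 and 0.0312), and RAD21 -0.13 (edgeR adjusted p = 0.254). STAG1 and PDS5A became 0.49 and 0.45 (edgeR adjusted p = 0.00594 and 0.00285). MAU2, WAPL and PDS5B changed sign, to -0.06, 0.11 and 0.04, and the value farthest from 0, 0.49 for STAG1, stayed under 1.5-fold.

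**Figure D3:**
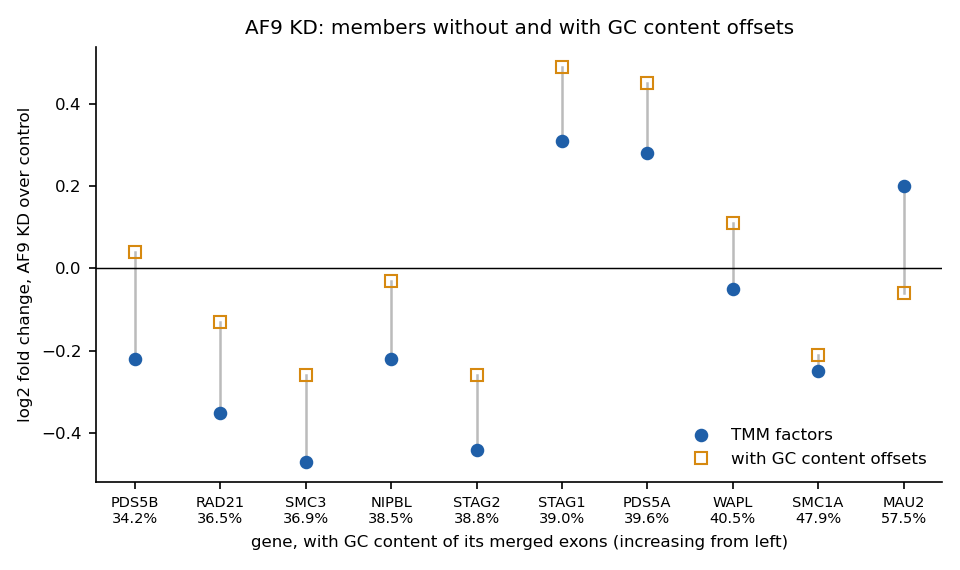
Log2 fold change after AF9 KD for each cohesin gene without (filled circles) and with (open squares) GC content offsets, genes ordered by the GC content of their exons. The 9 genes from PDS5B (34.2%) to SMC1A (47.9%) move up and MAU2 (57.5%) moves down; SMC1A moves least, from -0.25 to -0.21.

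Seed matches of the AF9 shRNA, printed above, were counted in the same way. SMC3, STAG1, STAG2 and MAU2 had no AAATTAA in their canonical transcripts, SMC1A, RAD21 and NIPBL had 1, PDS5A and PDS5B had 2, and WAPL had 4. In the 3′ UTR alone SMC1A, WAPL, PDS5A and PDS5B had 1 each, and the other genes had none. The letters occurred in 33.7% of the transcripts of tested genes. The median log2 fold change after AF9 KD was 0.07 for the 8277 genes with none in the 3′ UTR, -0.08 for the 2105 with 1 and -0.16 for the 1271 with 2 or more. The site holds only A and T, and log2 fold change rose with GC content in this contrast (Spearman rho 0.48). These medians do not separate sites from GC content. The part of such sites in the values of the cohesin genes was not tested.

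The balance between alternative subunits was compared as shares of TPM within each library. STAG2 made up 58.1%, 64.8% and 64.0% of STAG1 plus STAG2 in the controls of the MLL1 experiment and 41.8%, 57.9% and 57.8% in MLL1 KD cells. All KD libraries were lower, with the closest pair 57.9% and 58.1%, and the mean share went from 62.3% to 52.5%, a difference of -9.78 percentage points that was -4.43 without KD replicate 1. The size of the share depends on the gene lengths used. Control and MLL1 KD means were 74.7% and 66.2% with the longest transcript, and 77.1% and 68.9% from CPM. KD replicate 1 was then at 56.3% and 59.4%, so which STAG gene is in the majority there is not settled. In the AF9 experiment control cells had a STAG2 share of 82.7% and 83.4% and AF9 KD cells one of 73.3% and 75.7%, a mean difference of -8.57 percentage points. An exact two-sided permutation test gave p = 0.333 for this and for each further AF9 ratio, the smallest p that 2 against 2 allows. The STAG2 share was lower in every KD library of both experiments, which have separate controls. The MLL1 contrast chose the group and the AF9 test could not pass, so no support is drawn from this. Log2 fold changes of STAG1 and STAG2 were 0.64 and 0.07 after MLL1 KD, and 0.31 and -0.44 after AF9 KD.

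PDS5B made up 26.0% to 32.4% of PDS5A plus PDS5B in controls and 24.6% to 29.1% in MLL1 KD cells, with overlap. In the AF9 experiment control cells had 30.6% and 29.1% and AF9 KD cells had 22.8% and 23.6%, so both KD libraries were lower. The ratio of SMC1A to SMC3 went from 3.81, 2.59 and 2.71 in controls to 1.76, 0.874 and 0.842 in MLL1 KD cells, with no overlap. In the AF9 experiment control cells had ratios of 2.42 and 2.51 and AF9 KD cells had 2.77 and 2.99, so the order of the groups was the opposite. The proteins themselves form a one-to-one dimer, and transcript ratios depend on the lengths used.

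**Figure D4:**
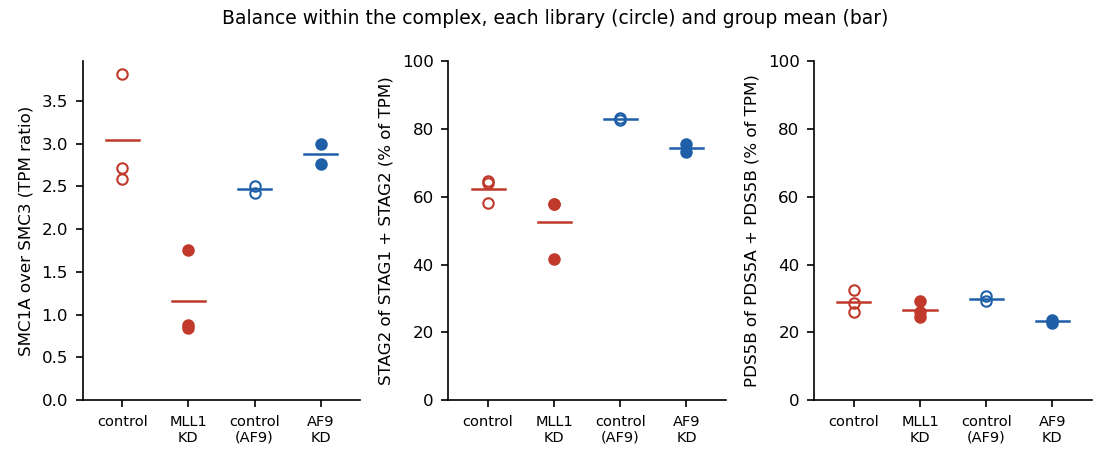
Ratio of SMC1A to SMC3 (left), share of STAG2 among the STAG pair (middle) and share of PDS5B among the PDS5 pair (right) in each library, from TPM, with group means as bars. The mean ratio of SMC1A to SMC3 is 3.04 in controls and 1.16 in MLL1 KD cells, and the mean STAG2 share is lower in KD cells of both experiments (52.5% and 74.5%).

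The wider cohesin list held 40 further genes, of which 36 were tested in each experiment. CHTF8 and SMC1B had 0 counts throughout, and the meiotic subunits RAD21L1 and STAG3 were under the filter. After MLL1 KD 0 of 36 were called by edgeR or by DESeq2, and 3 had an unadjusted p under 0.05 in the edgeR fit, beside 9.97% of tested genes. In all, 8 had all KD libraries below control with 0 above, beside 9.08% and 8.64% of tested genes. Their median log2 fold change was -0.12, beside 0.01 for all tested genes. By part of the list, the lowest median was -0.27 over 9 genes of the SMC5/6 complex, a relative of cohesin in DNA repair. The other medians were -0.15 (acetylation and cohesion), -0.12 (condensins), -0.07 (cleavage and protection), -0.05 (1 meiotic subunit) and 0.07 (CTCF alone). With the replicate block 5 of the 36 had an adjusted p under 0.05, all lower (DDX11, ESPL1, NCAPD2, SMC5 and SMC6), beside 6.94% of tested genes lower at that limit. None of the 5 reached 1.5-fold, and SMC5 had the lowest log2 fold change of the list at -0.57.

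After AF9 KD 2 of the 36 were called by edgeR, beside 13.1% of tested genes. SGO2, which protects centromeric cohesin, was at a mean of 161 CPM in control cells and fell (log2 fold change -0.76, SE 0.11, edgeR adjusted p = 0.000296). CHTF18, of the clamp loader that aids cohesion at replication forks, rose from 6.77 to 18.6 CPM (log2 fold change 1.47, SE 0.22, edgeR adjusted p = 0.000377). With GC content offsets CHTF18 had a log2 fold change of 0.71 and SGO2 -0.56, the latter under 1.5-fold. Without the fold limit 12 of 36 had an adjusted p under 0.05, 9 lower and 3 higher, beside 14.6% and 14.4% of tested genes. The median was -0.14 over the list. The boundary factor CTCF, which halts cohesin at loop anchors, had log2 fold changes of 0.07 (SE 0.12) after MLL1 KD and -0.02 (SE 0.10, edgeR adjusted p = 0.881) after AF9 KD.

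**Figure D5:**
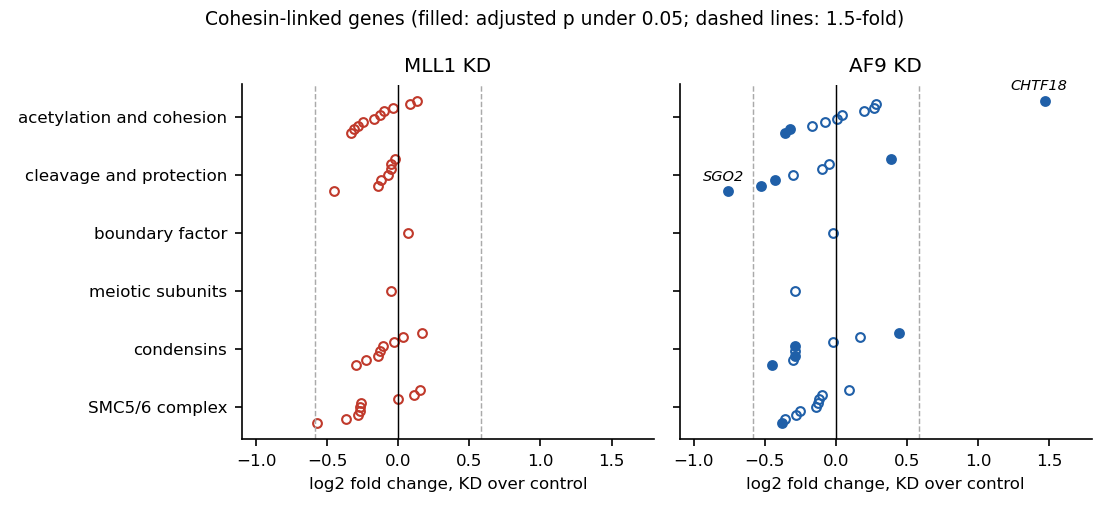
Log2 fold change of the 36 tested cohesin-linked genes by list after MLL1 KD (left) and AF9 KD (right), with filled circles for adjusted p under 0.05 in the unpaired fit and dashed lines at 1.5-fold. No circle is filled after MLL1 KD, and SGO2 (-0.76) and CHTF18 (1.47) lie beyond 1.5-fold after AF9 KD.

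The protein-coding neighbours of SMC1A were read as well. RIBC1 starts head to head with SMC1A on the opposite strand and overlaps its 5′ end, and with at most 7 counts in any library it was under the filter. IQSEC2, at chrX:53225828-53321350, had log2 fold changes of 0.39 (SE 0.22) after MLL1 KD and 0.13 (SE 0.17, edgeR adjusted p = 0.599) after AF9 KD. The promoter window of SMC1A, 250 bases before to 50 after the RefSeq start, held 21 CpG dinucleotides, the fewest of the 9 genes with an entry, which reached 45 in PDS5A and PDS5B. The median over 10240 tested genes was 26.

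Over the 10 libraries, with each experiment centred on its controls, genes most like SMC1A among 12730 tested in both experiments were MPZL1 (Pearson r 0.980), THUMPD3 (0.978), CBX3 (0.978) and CDIP1 (0.977). These had log2 fold changes of -0.60, -0.45, -0.92 and -0.85 after MLL1 KD and of -0.23 to -0.05 after AF9 KD. The points share libraries and the contrast that chose the group, so the values are a description. Among the other 9 cohesin genes r ranged from 0.589 for MAU2 to -0.718 for WAPL and -0.817 for STAG1.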

How the data were processed

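RNA-seq libraries of HEL cells were analysed from 2 tables of counts per gene. The authors filtered reads with fastp 0.13.1, aligned them to hg38 with HISAT2 2.1.0 in strand-specific mode, counted reads with featureCounts 1.6.1 and deposited the raw counts without normalization. The annotation behind the symbols is not given in the sources used here. Symbols were matched to GENCODE 44 (92.3% of 28103). Genes reaching a mean of 1 TPM (from merged exon lengths, or 1 CPM without a length) were tested within each experiment with edgeR 4.0.16 in R 4.3.3, with TMM factors, the quasi-likelihood test, two-sided, and Benjamini-Hochberg adjustment over all tested genes. Calls needed a 1.5-fold change and an adjusted p under 0.05. The procedure was tested on simulated data. Ratios were compared by exact permutation tests (scipy 1.17.1).

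Genes named were the 10 members, both targeted genes, called genes of the wider cohesin list, the neighbours of SMC1A, and the 5 genes most correlated with SMC1A. Of these 5, 1 is not reported here, and 1 erythroid marker was left out of the sums. Other genes of the list that are named were chosen after their values were seen. The members and lists were chosen with earlier results of these data known.

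Same-numbered control and MLL1 KD libraries deviated together from their group means (r = 0.647, 0.336 and 0.356), each above 0.1. The main fit still had no pairing, and the printed fitted log2 fold changes, SEs and intervals come from it. The replicate block was an alternative. Deviations of replicate 1 had r of -0.509 to -0.458 with replicates 2 and 3 of the other group, while replicates 2 and 3 crossed had r of 0.359 and 0.369, so the numbers set replicate 1 apart but do not order 2 and 3. Alternatives were DESeq2 1.42.0, its size factors, total counts, 3 other filters, the replicate block, GC content offsets (lowess span 0.3), both together, other fold limits, other lengths, and each library left out.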

Additional observations from a re-analysis of the deposited data

How the results depend on the processing

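After MLL1 KD the number of the 10 cohesin genes called, 1 by edgeR, was 2 with DESeq2, 2 with the replicate block and 2 with GC content offsets and the block (SMC1A and STAG1 each time), and 0 to 1 with a library left out. The wider list went from 0 to 1 called (SMC5) with GC content offsets and the block. After AF9 KD 0 of the 10 were called under every alternative with the 1.5-fold or 2-fold limit, and 3 without a fold limit. Without that limit, in alternatives chosen after seeing the data, the 3 became 8 with the replicate block and 1 to 7 with a library left out: 1 (SMC3) without control replicate 1, 2 (SMC3, STAG2) without control replicate 2, 6 without KD replicate 1 and 7 without KD replicate 2. The main AF9 fit had no pairing either, and the block there rests on only 2 pairs (r = 0.159). The share of all tested genes without the limit is given only for the main fit, at 29.0%. Nothing about the cohesin genes is read from the counts in the other fits. In the wider list the 2 calls after AF9 KD became 1 with GC content offsets, 1 with these and the block, 1 at a fold change of 2 and 12 without a fold limit. In the AF9 experiment MAU2 reversed to -0.06 with GC content offsets, alone or with the block. PDS5B reversed to 0.04 in both of these fits. WAPL reversed to 0.11 in both, to 0.03 with total counts, and lay between -0.16 and 0.05 with a library left out (0.05 without KD replicate 2). The causes were not tested. The KD minus control difference in SMC1A over SMC3 moved from -1.88 to -0.873 with the longest transcript's length after MLL1 KD, and from 0.414 to 0.192, or 0.289 from CPM, after AF9 KD. Such a change scales this ratio alike in every library, so the proportion of KD to control stayed the same. The STAG2 difference after AF9 KD moved from -8.57 to -5.83 and -5.30 percentage points. The remaining 122 AF9 values of single genes kept their direction and stayed uncalled. The MLL1 values were judged by spread, not by sign, and all 150 stayed within the replicate spread of the reported ones. Values near 0 still changed sign there with a library left out. SMC3 went from 0.07 to as low as -0.05 and STAG2 from 0.07 to -0.05. RAD21 went from -0.08 to as high as 0.07 and NIPBL from -0.03 to 0.12. With 2 or 3 libraries a group, small differences of the lowest genes, STAG1 and MAU2, may not be detectable.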
